A study of Rattus norvegicus with 8 samples.

Results

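The enzymes described here remove the amino group of an amino acid in liver cells: 8 aminotransferases (Got1, Got2, Gpt, Gpt2, Tat, Agxt, Agxt2 and Aadat) and 2 serine dehydratases (Sds and Sdsl). They were chosen by name, as all probe sets that the array's annotation pairs with exactly 1 of these 10 symbols. They are 10 of 14217 named genes and have 13 of the 31099 probe sets (2 each for Got2, Gpt2 and Sdsl, 1 for every other gene), and no filter on low values was applied, so all 13 were kept. The livers were those of male rats of the outbred Sprague-Dawley strain, 7 weeks old. One group ate a purified diet without its iron salt, ferric citrate, and the other ate the same diet with it, as control. Each group gave 4 arrays of the Affymetrix rat expression type, each labelled as a biological replicate, from 7 rats on the iron-deficient diet and 6 on the control diet. Livers were taken on day 17, after 4 days of daytime feeding and a last meal of 1.5 h, when blood hemoglobin in the iron-deficient group stood at 42% of that in controls. Which of the rats were hybridised is not stated, and whole liver was used, so fewer cells of a type and less RNA per cell cannot be told apart.

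Aminotransferases hold a vitamin B6 cofactor and pass the amino group to a keto acid, most often 2-oxoglutarate, which becomes glutamate. Serine dehydratase instead releases the amino group of serine as ammonia and leaves pyruvate. In liver both reactions feed amino acid carbon into glucose synthesis and nitrogen into the urea cycle, and in the rat Tat and Sds are classic examples of enzymes induced by glucocorticoids, glucagon and dietary protein. None of these enzymes uses iron as its cofactor.

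No enzyme of this group passed the test for a diet difference. In the means, Sdsl was lower in iron-deficient livers with both of its probe sets, while its relative Sds, together with Got1 and Tat, was higher in 3 of the 4 iron-deficient livers than in any control liver. The remaining iron-deficient liver, replicate 2, was the lowest or second lowest of all 8 livers for 11 of the 13 probe sets. The share of all probe sets with either of these 2 patterns is not given here, so neither can be read as particular to these enzymes. In limma, 0 of the 13 probe sets passed an adjusted p of 0.05, where 0.0322% of all 31042 tested probe sets did, and the members' adjusted p ran from 0.330 to 0.972. At an unadjusted p under 0.05 there was 1 of 13, against 11.4% of all probe sets. Of the 13 differences, 8 were above 0 and 5 below, where 49.6% of all probe sets were above 0, and the median standardised difference was 0.168 against -0.0105 over all probe sets. The standardised difference is the difference between the group means divided by the within-group SD. It is used because the deposited log2 values are compressed, with a median within-group SD of 7.82e-06 over all probe sets, and unequally so from one probe set to another, so a difference on that scale is not a fold change and its size cannot be compared between genes. The mean of each of the 13 probe sets lay above the array medians of 7.1199 to 7.1207.

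**Figure D1:**
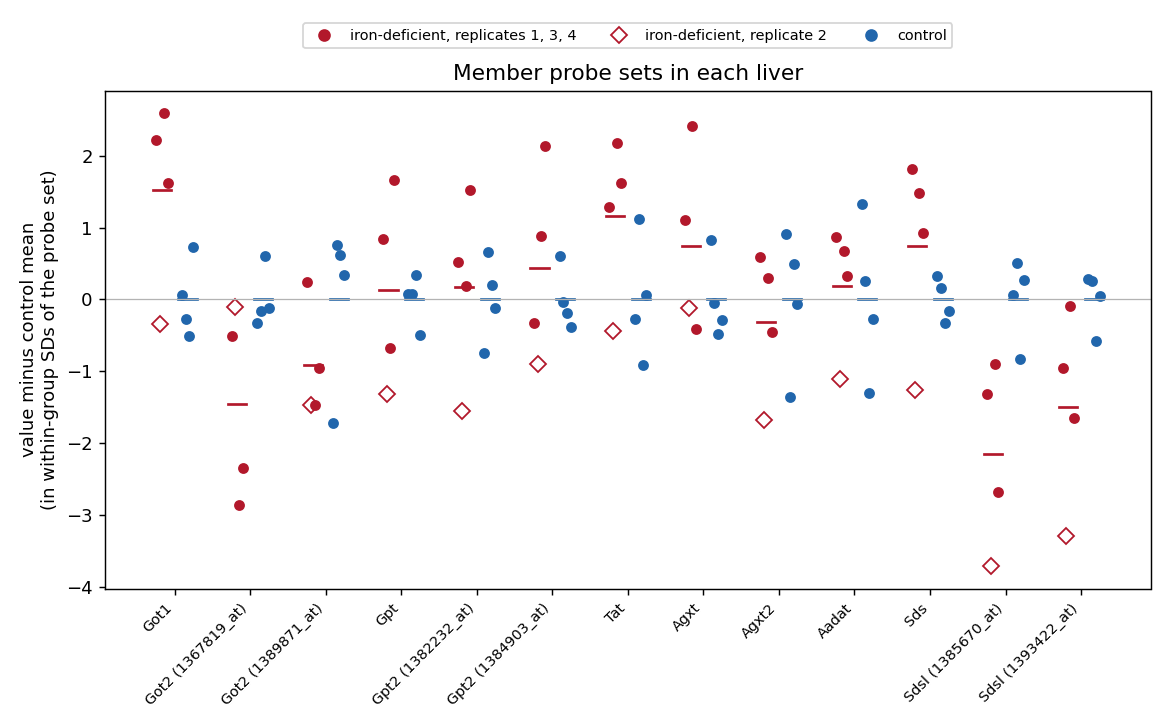
Value of each of the 13 probe sets in each liver, as the distance from the control mean in within-group SDs, with iron-deficient livers on the left of each pair and control livers on the right; short lines are group means. Iron-deficient replicate 2, the open diamond, was the lowest of the 8 livers for 7 probe sets.

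Sequence was available in the RefSeq promoter table (build GRCr8) for 7 of the 10 genes, and for Gpt, Sds and Sdsl there was no entry. The windows of 3 members are shown: Got1 and Tat, which were higher in 3 of 4 iron-deficient livers than in any control liver, and Aadat, whose livers stood within each diet in the same order as for Sds. Each runs from 250 bases before to 50 bases after the gene's start and has every CCAAT box (letters CCAAT, on either strand, so that ATTGG is the same box on the other strand) in capitals. Got1 lies at chr1:252329822-252330121 on the minus strand, Tat at chr19:54856354-54856653 on the plus strand and Aadat at chr16:34555131-34555430 on the minus strand.
Got1: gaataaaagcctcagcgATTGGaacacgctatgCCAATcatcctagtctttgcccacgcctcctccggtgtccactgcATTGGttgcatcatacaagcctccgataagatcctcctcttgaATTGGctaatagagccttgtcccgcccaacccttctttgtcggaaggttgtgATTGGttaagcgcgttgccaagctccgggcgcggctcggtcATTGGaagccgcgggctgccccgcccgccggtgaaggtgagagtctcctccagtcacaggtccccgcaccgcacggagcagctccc
Tat: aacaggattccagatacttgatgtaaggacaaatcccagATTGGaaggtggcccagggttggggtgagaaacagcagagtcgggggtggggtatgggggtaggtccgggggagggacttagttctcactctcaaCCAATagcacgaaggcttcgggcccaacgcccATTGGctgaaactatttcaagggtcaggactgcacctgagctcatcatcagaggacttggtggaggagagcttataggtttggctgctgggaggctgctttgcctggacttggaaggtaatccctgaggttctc
Aadat: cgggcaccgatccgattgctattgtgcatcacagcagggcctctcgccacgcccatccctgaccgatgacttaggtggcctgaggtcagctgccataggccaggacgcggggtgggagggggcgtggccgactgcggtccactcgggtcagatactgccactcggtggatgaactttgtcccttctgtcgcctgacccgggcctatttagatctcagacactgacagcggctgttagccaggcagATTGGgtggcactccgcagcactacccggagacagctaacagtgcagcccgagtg
Got1 held 6 such boxes, Tat 3 and Aadat 1. A window of the same length held at least 1 box in 37.5% of all 33469 promoters in the table, at least 3 in 3.02% and at least 6 in 0.0418%. The second of the 2 Agxt windows also held 1 box, and the windows of Got2, Gpt2 and Agxt2 and the first of Agxt held none. The cyclic AMP response element TGACGTCA, present in 1.83% of all promoters, was in none of the 8 member windows. The glucocorticoid half-site TGTTCT, present in 20.7%, was only in the first Agxt window, and the TATA letters TATAAA, present in 14.2%, only in that of Agxt2. The hypoxia response cores ACGTG and GCGTG, present in 19.3% and 29.7%, were searched on both strands too. ACGTG was found once in Gpt2, while GCGTG was found 2 times each in Got1, Got2 and Aadat and once in the second Agxt window. These are matches of letters and not shown binding sites, and the boxes were counted after the values were known. Sequence outside the windows was not searched, so an absence here does not tell whether a gene has such an element farther away.

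Got1 encodes the cytosolic aspartate aminotransferase, which hands aspartate nitrogen to glutamate and takes part in the malate-aspartate shuttle. Its deposited log2 values were 11.5502, 11.5385, 11.5519 and 11.5475 in iron-deficient livers, against 11.5403, 11.5388, 11.5377 and 11.5434 in control livers. Iron-deficient replicates 1, 3 and 4 lay above all control livers, and replicate 2 lay below all but 1 of them, so the groups overlapped. The difference was 0.00698 ± 0.00309 on the deposited log2 scale (SE, n = 4 each), a standardised difference of 1.52 ± 0.676 (limma adjusted p = 0.463). With iron-deficient replicate 2 left out, the groups no longer overlapped and the standardised difference was 4.14 (limma adjusted p = 0.231).

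Got2, the mitochondrial partner of Got1 in the same shuttle, had 2 probe sets and was lower in the means of both. For probe set 1367819_at the values ran from 12.6624426 to 12.6624516 in iron-deficient livers, against 12.6624508 to 12.6624538 in control livers. Here iron-deficient replicates 1, 3 and 4 lay below all control livers and replicate 2 lay within them, the mirror image of Got1. The difference was -4.70e-06 ± 2.29e-06, a standardised difference of -1.45 (limma adjusted p = 0.508). For probe set 1389871_at the standardised difference was -0.915 (limma adjusted p = 0.677), and the groups overlapped. Without control replicate 1 it was -2.33 and the groups no longer overlapped, with a limma adjusted p of 0.279. In that setting the groups did not overlap in 13.4% of all probe sets. The sign of 1367819_at turned under quantile normalization and under median centring, and that of 1389871_at under quantile normalization.

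Gpt and Gpt2 encode the cytosolic and mitochondrial alanine aminotransferases, which turn alanine into pyruvate. Gpt read 10.5007, 10.4933, 10.4955 and 10.5035 in iron-deficient livers, against 10.4980, 10.4980, 10.4989 and 10.4961 in control livers. The iron-deficient livers thus fell on both sides of the controls, 2 above and 2 below all of them, and the standardised difference was 0.129 (limma adjusted p = 0.972). The SD of Gpt was 0.00467 in iron-deficient livers and 0.00119 in control livers (n = 4 each). The probe sets of Gpt2 had standardised differences of 0.168 and 0.443, with limma adjusted p of 0.960 and 0.869. Both were lowest of all 8 livers in iron-deficient replicate 2 and highest in iron-deficient replicate 4.

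Tat encodes tyrosine aminotransferase, the first step of tyrosine breakdown. It read 10.45655, 10.45521, 10.45724 and 10.45681 in iron-deficient livers, against 10.45535, 10.45642, 10.45484 and 10.45560 in control livers. As for Got1, iron-deficient replicates 1, 3 and 4 lay above all control livers and replicate 2 was the second lowest of the 8. The difference was 8.98e-04 ± 5.23e-04 (SE, n = 4 each), a standardised difference of 1.16 (limma adjusted p = 0.582), or 2.36 without iron-deficient replicate 2 (limma adjusted p = 0.421).

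The remaining aminotransferases showed standardised differences of less than 1 in size, and the diets overlapped in all of them. Agxt, which converts glyoxylate to glycine in peroxisomes and, in the rat, also in mitochondria, had a standardised difference of 0.749 (limma adjusted p = 0.745), which was 0.286 without iron-deficient replicate 3 and 1.24 without iron-deficient replicate 4. Agxt2, a mitochondrial enzyme that also handles methylated arginines, read 10.2116, 10.1596, 10.2049 and 10.1878 in iron-deficient livers, against 10.2190, 10.1672, 10.2095 and 10.1967 in control livers. Its standardised difference was -0.310 (limma adjusted p = 0.918). In both diets the livers stood in the same order by replicate number for Agxt2 (2 lowest, then 4, 3 and 1), each iron-deficient liver a little below the control liver of its number; 3.57% of all probe sets had a shared order of this kind, and Agxt2 was the only member among them. Aadat, which acts on 2-aminoadipate from lysine and on kynurenine from tryptophan, had a standardised difference of 0.192 (limma adjusted p = 0.955). The signs of Agxt, Agxt2 and Aadat each turned under at least 1 alternative.

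Sds encodes serine dehydratase, and read 11.4656, 11.4444, 11.4633 and 11.4595 in iron-deficient livers, against 11.4553, 11.4542, 11.4509 and 11.4520 in control livers. Iron-deficient replicates 1, 3 and 4 were the 3 highest of the 8 livers and replicate 2 the lowest. The difference was 0.00507 ± 0.00464 (SE, n = 4 each), a standardised difference of 0.738 (limma adjusted p = 0.750). It was 0.00965 without iron-deficient replicate 2, where the standardised difference was 3.87 and the limma adjusted p 0.252, and 0.00261 without iron-deficient replicate 1 and 0.00337 without iron-deficient replicate 3.

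Sdsl encodes a serine dehydratase-like protein, which lies near Sds on rat chromosome 12, with 1 gene, a long non-coding RNA, starting between them in the RefSeq table. Probe set 1385670_at read 8.49110, 8.48891, 8.49147 and 8.48985 in iron-deficient livers, against 8.49235, 8.49275, 8.49153 and 8.49254 in control livers. All 4 iron-deficient livers lay below all control livers, though the highest of them stood only just under the lowest control. The difference was -0.00196 ± 6.16e-04 (SE, n = 4 each), a standardised difference of -2.15 (limma adjusted p = 0.330). An exact two-sided permutation test over the 8 livers gave p = 0.0286, the smallest it can give, without adjustment over genes. Groups that do not overlap occurred in 6.48% of all probe sets (3.41% lower and 3.07% higher in iron-deficient livers) and in this 1 of 13. The second probe set, 1393422_at, had 3 of 4 iron-deficient livers below all control livers and a standardised difference of -1.498, with a limma adjusted p of 0.471 and an exact permutation p of 0.0571. With each liver left out in turn, the standardised difference of 1385670_at ran from -1.86 to -2.90. That of 1393422_at was -2.39 without iron-deficient replicate 3, where its groups did not overlap, as in 10.6% of all probe sets. Without control replicate 3 it was -1.61 and its groups did not overlap either, as in 8.69% of all probe sets.

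**Figure D2:**
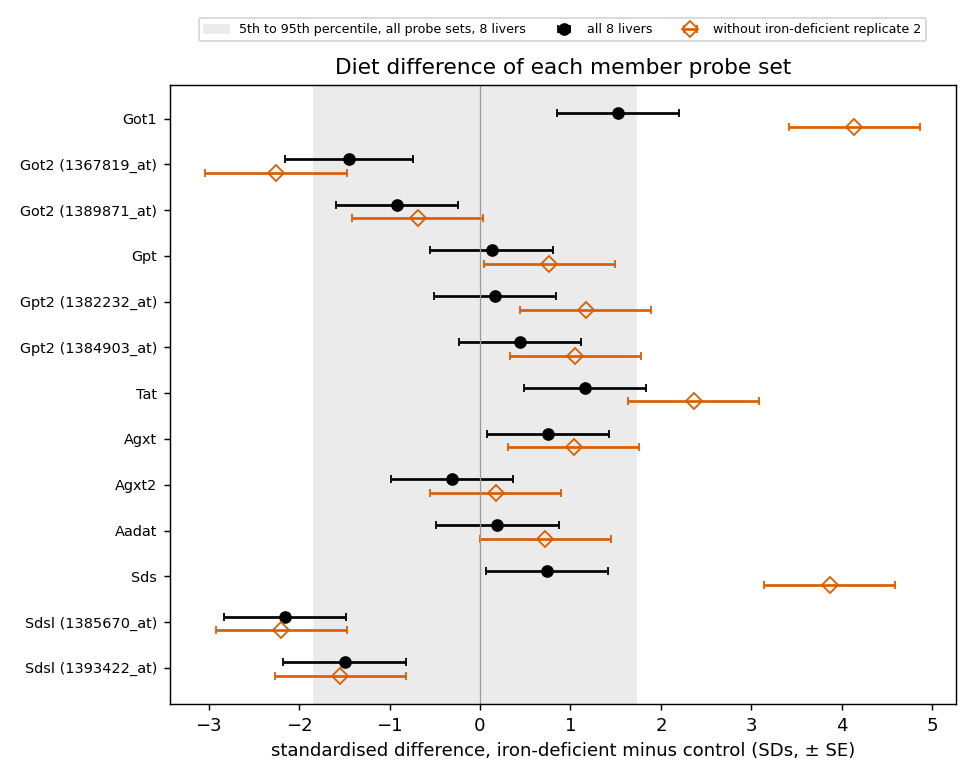
Standardised difference, iron-deficient minus control, of each probe set with its SE, for all 8 livers (filled circles) and without iron-deficient replicate 2 (open diamonds). The grey band spans the 5th to 95th percentile of all probe sets over all 8 livers, -1.84 to 1.73. It is therefore a background for the filled circles only and not for the open diamonds. Got1 and Sds move from 1.52 and 0.738 to 4.14 and 3.87 when that liver is left out, while both Sdsl probe sets stay below 0.

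Iron-deficient replicate 2 was far from the other iron-deficient livers in a gene of iron metabolism, Hamp, and often the lowest of them in these enzymes, though in no member probe set far from them by the same measure. It was the lowest of all 8 livers for 7 of the 13 probe sets, where it was lowest for 12.2% of all probe sets, and the lowest of the 4 iron-deficient livers for 11 of 13, against 23.5% of all probe sets. Hamp, which codes for hepcidin, the liver hormone that limits iron uptake, read 10.577 in that liver and 6.976, 6.988 and 6.928 in the other iron-deficient livers, against 15.991 to 16.099 in control livers. Without that liver, 5 of the 13 probe sets had an unadjusted p under 0.05, against 9.79% of all probe sets, and in 5 the groups did not overlap, against 9.77%. Those 5 were Got1, Tat and Sds, which were higher, and Got2 1367819_at and Sdsl 1385670_at, which were lower. For Got2 1367819_at this holds for the values as deposited, since over all 8 livers its sign turned under median centring. None of the 5 passed in limma after adjustment, the lowest adjusted p being 0.231. With any other single liver left out, 1 or 2 of the 13 had an unadjusted p under 0.05, against 8.4% to 13.7% of all probe sets. In those settings the groups did not overlap in 1 or 2 of the 13, against 8.69% to 13.4%. Iron-deficient replicate 2 was singled out after its values were seen, so the counts without it are no separate support. Whether its hepcidin level has a part in its values was not tested.

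The enzymes' values were also set against each other from liver to liver, with the mean of each diet group removed. The Pearson correlation over the 8 livers was above 0 for 61 of the 78 pairs of member probe sets, with a median of 0.440, and above 0.7 for 17. Over all pairs of the 14217 genes 50.4% were above 0, the median was 0.005 and 4.49% were above 0.7. Without iron-deficient replicate 2, 40 of the 78 were above 0, with a median of 0.0304, and 7 were above 0.7, where 6.74% of all gene pairs were, so most of the shared variation was not seen without that liver. Without the 2 livers farthest from the median, 54 were above 0 and 9 above 0.7. These 2 livers were set by the probe set listed first in each pair, so they differed between pairs. In some pairs iron-deficient replicate 2 was not among them. Pairs among Got1, Tat, Aadat, Sds and Sdsl made up 13 of the 17, out of 15 such pairs. Of these 15, 4 were above 0.7 without iron-deficient replicate 2 and 5 without 2 livers, though all 15 were above 0 in both cases. These genes were picked out after their correlations were seen, so the count is no separate support, and the 15 include the pair of the 2 Sdsl probe sets. Agxt, outside this set, was also above 0.7 with both Sdsl probe sets, at 0.783 and 0.791. No pair passed after Benjamini-Hochberg adjustment over the 78 pairs, and the smallest p that permuting within diet groups can give is 0.00174 before adjustment.

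The 2 Sdsl probe sets, which measure 1 gene, correlated at r = 0.955 (exact permutation p = 0.00694 within diet groups, adjusted p = 0.190, Spearman rho = 0.7, exact p = 0.111). The value was 0.929 without 2 livers and 0.922 without iron-deficient replicate 2. Sds and Sdsl 1393422_at correlated at r = 0.917 (exact permutation p = 0.0226, adjusted p = 0.196, rho = 0.900, exact p = 0.0243), at 0.910 without 2 livers and at 0.670 without iron-deficient replicate 2. Got1 and Sds correlated at r = 0.888 (exact permutation p = 0.0556, adjusted p = 0.333, rho = 0.600, exact p = 0.212), at 0.517 without 2 livers and at 0.365 without iron-deficient replicate 2. Gpt and Gpt2 1382232_at correlated at r = 0.825 (exact permutation p = 0.0399, adjusted p = 0.260, rho = 0.800, exact p = 0.0625), at 0.270 without 2 livers and at 0.633 without iron-deficient replicate 2. Got2 1367819_at was below 0 in all 11 of its pairs with other genes, but in 5 of 11 without 2 livers and 7 of 11 without iron-deficient replicate 2.

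**Figure D3:**
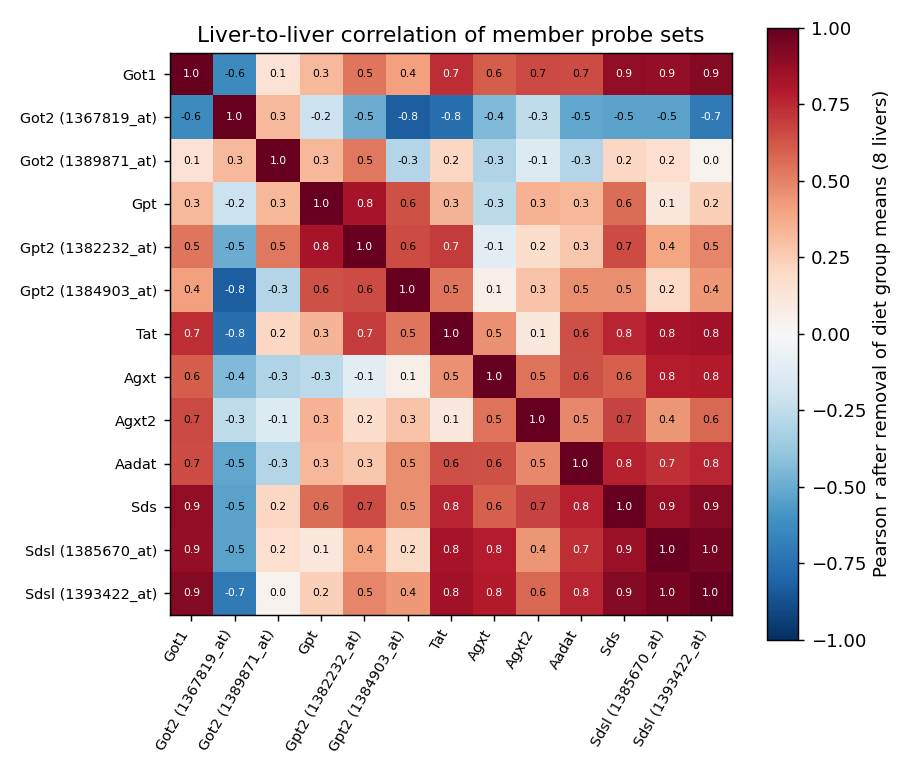
Pearson correlation of each pair of member probe sets over the 8 livers after removal of the diet group means, printed in each cell and coloured from blue (-1) to red (1). Got1, Tat, Aadat, Sds and both Sdsl probe sets, picked out after the values were seen and not all side by side, have 13 of 15 pairs above 0.7. Of these 15, 4 are above it without iron-deficient replicate 2. The blue row is Got2 1367819_at.

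The means of Sds and Sdsl lay on opposite sides of the control means, although neither gene passed the test. With each gene centred and divided by its within-group SD, Sds minus Sdsl 1385670_at ran from 0.939 to 2.16 in iron-deficient livers, against -1.87 to -0.933 in control livers. For Sdsl 1393422_at it ran from 0.455 to 1.65 in iron-deficient livers, against -1.32 to -0.859 in control livers. This difference was chosen after the values were seen, was not tested, and was not computed for other pairs of genes, so nothing particular to these 2 genes can be read from it.

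The genes whose pattern was most like that of Sds, by the Pearson correlation after removal of the diet group means over the 8 livers, were Gls2 at 0.983, Fuom at 0.978 and Mst1 at 0.967, the highest of 14216 genes compared. Gls2 encodes the liver glutaminase, which releases ammonia from glutamine beside the urea cycle and, like Sds, is most abundant around the portal vein. Gls2 read 11.51805, 11.51660, 11.51782 and 11.51775 in iron-deficient livers, against 11.51815, 11.51796, 11.51761 and 11.51774 in control livers. Within each diet the 4 livers stood in the same order for Sds and Gls2, and the correlation was 0.885 without iron-deficient replicate 2. The diet difference of Gls2 itself had a standardised value of -0.636 (limma adjusted p = 0.789). For Tat the nearest genes were Ripor1 at 0.951, Tpsb2 at 0.947 and Chodl at 0.943. Ripor1 ran only from 7.778787922 to 7.778788197 over the 8 livers, so its place rests on very small differences on the deposited scale. With so few livers, high values are found for some genes among so many, and no p is attached to them.

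**Figure D4:**
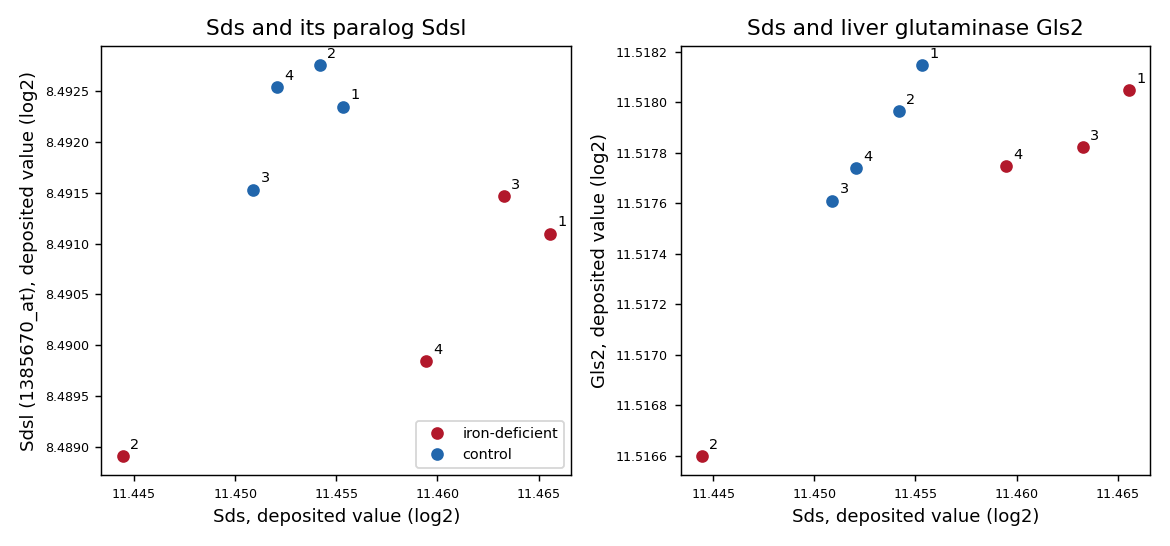
Deposited log2 values of Sdsl 1385670_at (left) and Gls2 (right) against Sds in each liver, iron-deficient in red and control in blue, numbered by replicate. Iron-deficient livers lie below all control livers for Sdsl, and for Gls2 the livers of each diet stand in the same order as for Sds.

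The other enzymes around these steps were described with lists of genes, where a gene with several probe sets is given by the one that was brightest on average. Over all 14217 genes 47.0% were higher and the median standardised difference was -0.0727. No listed gene passed in limma in either direction. The counts of higher and lower genes hold for the values as deposited and depend on the scaling, since median centring adds a median of 5.06e-05 to the differences, more than many of them. Among other aminotransferases, 4 of 8 measured members were higher (median -0.0324), and Oat, the ornithine aminotransferase of cells around the central vein, had the largest standardised difference at 2.92 (limma adjusted p = 0.219), followed by Psat1 of serine synthesis at 0.827 (limma adjusted p = 0.713). The remaining members of the malate-aspartate shuttle were all lower, 6 of 6, with a median of -1.03, led by Mdh2 at -1.29 and Slc25a13 at -1.21, with limma adjusted p of 0.545 and 0.572. Under median centring and under quantile normalization 5 of these 6 were higher instead, so this list has no settled direction. For serine, glycine and threonine metabolism 8 of 14 were higher (median 0.184), with Cbs, which joins serine to homocysteine, at 2.18 and Shmt2, a mitochondrial serine hydroxymethyltransferase, at -1.39, with limma adjusted p of 0.323 and 0.507.

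For glyoxylate and glycerate enzymes, which supply or remove the substrates of Agxt, 7 of 8 were lower (median -0.339), with the glyoxylate reductase Grhpr at -1.75 and the D-amino acid oxidase Dao at -1.42, but 2 of 8 were lower under median centring. For tyrosine breakdown 2 of 5 were higher (median -0.0925), with Hpd, the enzyme after Tat, at 1.44 and Fah at -0.763. For lysine and kynurenine breakdown 5 of 11 were higher (median -0.170), with Aldh7a1, which makes the substrate of Aadat, at 2.01 and Kynu at 1.48. For glutamate, ammonia and the urea cycle 7 of 13 were higher (median 0.0671), with the argininosuccinate lyase Asl at 2.25 and the glutamine synthetase Glul at 1.38. The adjusted p of these 8 genes in limma ran from 0.312 to 0.907. Of the vitamin B6 list only Aox1 was measured, at -0.196 (limma adjusted p = 0.953).

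In gluconeogenesis, where the carbon of these reactions goes, 6 of 9 genes were lower (median -0.781) and 4 of 9 under median centring, and both named genes were lower without overlap: Pck2, the mitochondrial phosphoenolpyruvate carboxykinase, at -2.70 and the glucose-6-phosphate transporter Slc37a4 at -2.29, with limma adjusted p of 0.248 and 0.304. In a list of hormone-related genes, which held receptors, transcription factors and others such as Igfbp1, 16 of 22 were lower (median -0.604), and 11 of 22 under median centring. Igfbp1, an insulin-repressed binding protein, had a standardised difference of 5.35 and Cebpd, a transcription factor of the acute phase, of 4.72, both higher without overlap, with limma adjusted p of 0.0735 and 0.0946. Over the 95 listed genes that are not markers, the median correlation with Sds was 0.183 against -0.0194 over all genes, and 15 were above 0.7, a level reached by 3.15% of all genes. Of these 15, 4 were above 0.7 without 2 livers (Gls2, Ass1, Slc38a4 and Acmsd) and 1, Gls2, without iron-deficient replicate 2. Beside Gls2 they included Slc38a4, an amino acid transporter of hepatocytes, at r = 0.925 (exact permutation p = 0.00521, rho = 0.900, exact p = 0.0243), at 0.747 without 2 livers and 0.607 without iron-deficient replicate 2. Psat1 was the only one below -0.7, at r = -0.887 (exact permutation p = 0.0799, rho = -0.400, exact p = 0.420), but at -0.163 without 2 livers, so that this relation rests on them. None of the 95 passed after Benjamini-Hochberg adjustment over them, with adjusted p of 0.247 for Slc38a4 and 0.613 for Psat1.

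Markers of cell types and of positions in the liver lobule differed between the diets as follows, and none passed in limma. Hepatocyte markers were 3 of 9 higher (median -0.188), led by Serpina1 at 4.05, without overlap, and Ttr at -2.10, 2 secreted hepatocyte proteins. On the deposited scale these differences were 2.25e-07 and -1.67e-07, with limma adjusted p of 0.946 and 0.962. The mean level was 14.13193 to 14.13195 in both diets, and all 9 were higher under median centring. A mean level here is the plain average of the deposited values of a list's genes. As these are unequally compressed, a few genes with larger differences can set whether the levels of the diets overlap. Endothelial markers were 6 of 7 higher (median 3.66), led by Egfl7 at 5.28 and the receptor Flt1 at 5.09, their mean level running from 9.24952 to 9.24988 in iron-deficient livers, against 9.24882 to 9.24896 in control livers. Stellate markers were 6 of 8 higher (median 1.47), led by the retinol-storing enzyme Lrat at 3.70 and the matrix protein gene Dcn at 2.99, with mean levels of 8.18885 to 8.18927 in iron-deficient livers, against 8.18824 to 8.18855 in control livers. Kupffer cell markers were 6 of 6 higher (median 1.03), led by the lysozyme gene Lyz2 at 2.84 and the mannose receptor Mrc1 at 2.82, with 9.66412 to 9.66510 in iron-deficient livers, against 9.66344 to 9.66391 in control livers, but with Hamp kept out of a quantile normalization 2 of 6 were higher, and 4 of 8 stellate markers. The limma adjusted p of the named endothelial, stellate and Kupffer genes ran from 0.0735 to 0.231. Cholangiocyte markers (2 of 4 higher, median 0.0103, Epcam at -1.23 and Spp1 at 0.968), leukocyte markers (4 of 6 higher, median 0.809, Cd3e at -1.68 and Ptprc at 1.505) and erythroid markers (2 of 4 higher, median 0.370, Slc4a1 at 1.45 and Alas2 at 1.21) overlapped in mean level between the diets. Of genes most abundant around the portal vein, where Sds and Gls2 also lie, 6 of 9 were lower (median -0.636), led by Cyp2f4 at -5.28 and the histidine lyase Hal at -2.28. The mean levels of this list were 12.27419 to 12.27453 in iron-deficient livers, against 12.27424 to 12.27457 in control livers. Under median centring 4 of 9 were lower, and under quantile normalization 1 of 9, so this list has no settled direction. Of genes most abundant around the central vein, 7 of 9 were higher (median 1.96), led by Cyp1a2 at 5.43 and Tbx3 at 3.97. The mean levels of this list were 9.2988 to 9.3132 in iron-deficient livers, against 9.3001 to 9.3045 in control livers. Under quantile normalization 7 of 9 were higher, or 5 of 9 with Hamp kept out of it, and under median centring 8 of 9. The limma adjusted p of Cyp2f4, Hal, Cyp1a2 and Tbx3 ran from 0.0735 to 0.310. The part of cell makeup or of position in the lobule in the enzymes' values was not tested.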

How the data were processed

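Per the labels, cRNA for 8 arrays was prepared with 2 ug of total RNA each. The deposited values, 1 for each probe set on each array, lie between 5.32 and 16.1 and were taken as log2 from that range; the sources used here do not give how the authors summarised and normalised them. No 2 arrays were identical, and the number of arrays limits the precision. After removal of 57 array control probe sets, 31042 were tested: 20826 had 1 symbol in the platform annotation, 436 several and 9780 none, and 20758 of the first were matched to RefSeq by gene identifier. limma 3.58.1 (lmFit and eBayes, R 4.3.3) was fitted to all of them as iron-deficient minus control, with Benjamini-Hochberg adjustment over all and a threshold of 0.05, and was tested on simulated data. The members, the lists and the tests were chosen with earlier results of these data known. All members are named, as are from each list the genes past the threshold or else the 2 with the largest absolute standardised difference, and the 3 genes most like Tat and Sds in pattern. Hamp, Ass1, Acmsd, Slc38a4 and the correlation of Psat1 were chosen after their values were seen, as were the Sds minus Sdsl value, the promoter letters, the correlations and the counts of the lists under other scalings. Correlations were permuted within diet groups. The alternatives were quantile normalization (with and without the Hamp probe set), centring on array medians, a filter on the lowest 25% of probe sets, omission of single arrays, the replicate number as a block, eBayes with trend and robust settings, and averaging the probe sets of a gene.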

Additional observations from a re-analysis of the deposited data

Results flagged for a closer look

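Hamp had 1 liver far from the others of its group. In iron-deficient livers the gap between replicate 2 and its nearest neighbour was 0.984 of the group's whole range, above Dixon's critical value for 4 samples. Among the 26 groups of 4 values of the member probe sets, 0 passed that value, and chance marks about 1 in 20 such groups.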

How the results depend on the processing

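The 13 probe sets gave 198 comparisons with an alternative, of which 183 kept their direction. No member passed under any alternative except quantile normalization, where 1 did: Got2 1367819_at at 0.00526, turned in sign. Its standardised difference there was 1.30e+12, as its within-group SD all but vanished in that normalization, so the pass is not read as a diet difference. Without the Hamp probe set in that normalization its difference was 7.13e-16. Other signs that turned were Got2 1389871_at under quantile normalization (7.15e-05), Agxt (-4.87e-04) and Aadat (-3.16e-04) under it without the Hamp probe set, and Got2 1367819_at under median centring (4.59e-05). With 1 liver left out, signs turned within ranges of -0.00131 to 0.00209 for Gpt (-3.78e-04 without iron-deficient replicate 1, -1.17e-04 without control replicate 4), -1.43e-04 to 3.73e-04 for Gpt2 1382232_at (-4.02e-05 without control replicate 1), -2.90e-05 to 2.18e-04 for Gpt2 1384903_at, -0.0174 to 0.00337 for Agxt2 and -6.04e-05 to 1.57e-04 for Aadat (-8.41e-06 without iron-deficient replicate 1). Members above 0 numbered 5 to 9 of 13, with 5 without iron-deficient replicate 4.

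Over all probe sets the 10 calls (7 higher, 3 lower) became 1093 under quantile normalization (993 and 100), 84 without the Hamp probe set (42 each) and 63 under median centring (52 and 11). They were 4 to 27 with 1 liver left out: 5 without iron-deficient replicate 2, 27 without replicate 3, 4 without replicate 4, 6 without control replicate 2 and 4 without control replicate 3. The cause was not tested. Whether the replicate numbers pair the livers is not stated. Deviations of same-numbered arrays correlated at -0.111, 0.0245, -0.0251 and -0.0773 over the probe sets, which cannot decide it. With the replicate numbers as a block, 1 probe set passed and no member. Agxt2 then had a standardised difference of -5.59, against -0.310 without the block, and a limma adjusted p of 0.319.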
